A study of Mus musculus with 8 samples.

Results

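Solute carriers (gene symbols beginning with Slc) are membrane proteins that move small molecules across the plasma membrane, the mitochondrial inner membrane and the membranes of other organelles. Their genes were compared here between 2 fractions of adipose progenitors. Genes were included if the platform annotation gave them a symbol of the form Slc, family number, the letter a and member number, and if a probe of theirs was detected (detection p under 0.05) on at least 4 of 8 arrays. Of 316 genes with such a symbol on the array, 157 met this rule, among 10724 genes of any kind that did. Each gene was represented by its brightest tested probe. The 157 genes came from 44 of the 50 solute carrier families on the array and were grouped into 10 substrate classes.

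The cells came from lean C3H/HeOuJ mice aged 3 months (strain given as C3H in the sample labels, with CHOW in the sample titles), and were taken from the stromal vascular cells of epididymal white fat. All samples were sorted by flow cytometry as CD45- CD31- Gp38+ PDGFRα+ cells, and the fractions differ in surface CD9, a tetraspanin: 4 samples were CD9high and 4 were CD9low. No genetic change or drug is named for either fraction. The labels do not say whether a sample was 1 animal or a pool, so the p-values cover the spread between these samples, which may be technical.

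Solute carriers work by facilitated diffusion, by cotransport of their substrate with an ion, or by exchange of substrates. Many draw on the sodium gradient that the sodium pump maintains. Mature adipocytes are best known for Slc2a4 (GLUT4), the glucose transporter that insulin brings to the cell surface, while growing and matrix-secreting cells rely on amino acid carriers of the Slc1, Slc7 and Slc38 families.

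Values are normalized log2 intensities, and each difference is CD9high minus CD9low on that scale, with its standard error (SE) from a limma fit over all 10724 genes. Adjusted p is that of Benjamini and Hochberg across the same genes, and a gene passed the test below 0.05. An intensity depends on its probe, so levels are compared between arrays and not between genes. In an array of sorted cells, fewer cells of a type and less RNA per cell cannot be told apart.

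Between 41.1% and 51.1% of 45281 probes were detected per array. Cd9, read as a check of the labels, stood at 8.44 ± 0.14 (SD, n = 4) in CD9high and 4.8 ± 0.52 (n = 4) in CD9low. The progenitor markers Pdgfra, Pdpn, Dcn, Lum, Col1a1 and Cd34 were detected on all 8 arrays, and 0 of these 6 passed the test. Markers of other cells were present as well: 7 macrophage, 5 endothelial, 5 mural, 3 mesothelial, 3 adipocyte and 1 glial marker passed the detection filter, and 0 of these 24 genes passed the test. Summed over the macrophage markers, linear intensity ran from 386 to 2190 in CD9high and from 341 to 2520 in CD9low. The endothelial sum ran from 1060 to 1460 in CD9high and from 1000 to 3330 in CD9low, and the mural sum from 1090 to 2180 and from 1580 to 2890. Their part in the results below was not tested. CD9low replicate 2 stood apart from the other arrays: its correlation with them over all tested genes was between 0.788 and 0.872, while the lowest correlation among the other 7 was 0.894. Many results are therefore also given without CD9low replicate 2. A difference given with 1 value only rests on all 8 arrays and may shift without that array.

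Of the 157 solute carrier genes, 1 rose and 4 fell in CD9high, and 152 did not pass the test. These 5 genes are 3.18% of the members, where 1.69% of all genes tested passed. By direction, 0.637% of the members rose against 1.13% of all genes, and 2.55% fell against 0.559% of all genes. The split of 1 higher and 4 lower became 2 higher and 3 lower with a larger normalization offset (50 in place of 16). With median centring it became 1 higher and 2 lower. It stayed 1 higher and 4 lower with no background correction, the authors' normalized values or the brightest probe by deposited signal. It was 1 higher and 0 lower on slide 1 alone (replicates 1 to 3) or without the filter on dim probes. The same held without CD9high replicate 1. It was 1 of each with the replicate number as a block, or without replicate 3 or 4 of CD9high or replicate 4 of CD9low. The rising gene was Slc6a7, of a proline transporter. The falling genes were Slc1a3, of a glutamate transporter, Slc24a3, of a sodium/calcium/potassium exchanger, Slc7a8, of a neutral amino acid exchanger, and Slc5a6, of the carrier for biotin and pantothenate. The arrays of the fractions did not overlap for 16 members (10.2%), where this held for 7.69% of all genes. CD9high was higher in 5 of them (3.18% of members, against 3.92% of all genes) and lower in 11 (7.01%, against 3.78%). An unadjusted p under 0.01 was reached by 12 members (7.64%) and by 4.39% of all genes. The median difference was -0.09 over the members and -0.04 over all genes tested, with quartiles of -0.3 and 0.21 over the members and -0.3 and 0.23 over all genes. Of the members, 117 differed by less than 0.5 in either direction.

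**Figure D1:**
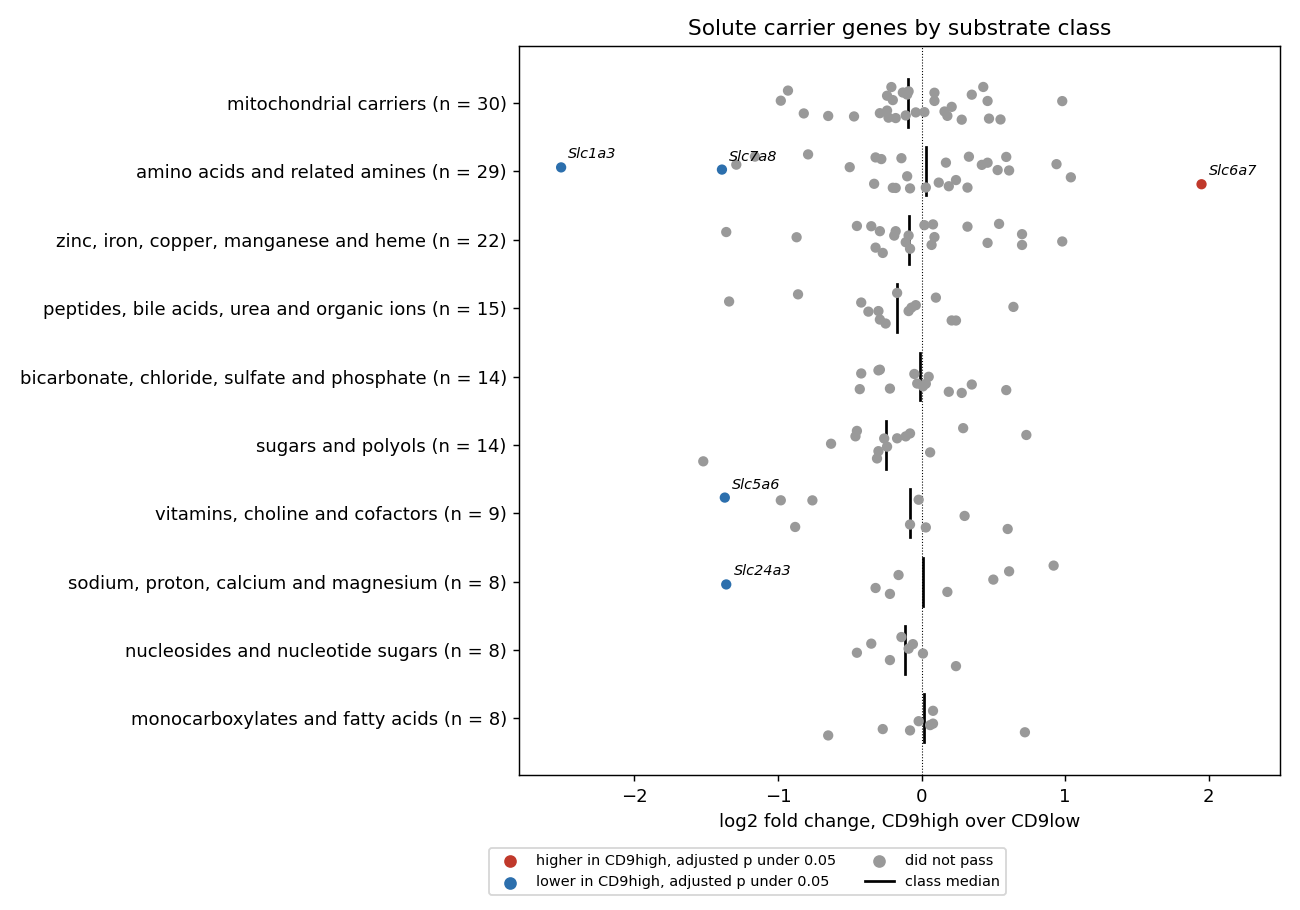
Log2 fold change of CD9high over CD9low (horizontal axis) for the 157 solute carrier genes, each a point, in rows by substrate class with the number of genes; vertical scatter within a row has no meaning, and the black bar is the class median. The class medians lie between -0.25 (sugars and polyols) and 0.03 (amino acids and related amines) with all arrays and between -0.27 (vitamins, choline and cofactors) and 0.08 (bicarbonate, chloride, sulfate and phosphate) without CD9low replicate 2, which is not plotted here, and the 5 coloured genes passed an adjusted p of 0.05.

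Windows of sequence before the transcription start, from RefSeq's promoter table, are shown for the 4 members that fell. No window was read for Slc6a7, the gene that rose. Each window is the 250 bases before the start, on the gene's own strand and 5′ to 3′, in the build GRCm38.p6. Where the table held more than 1 start, the most upstream was taken. Capitals mark matches on either strand to TATAAA (the TATA box), GGGCGG (the GC box), CCAAT (the CCAAT box) and TGATGNAA (the core of the amino acid response element bound by ATF4); overlapping matches run together.

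Slc1a3 chr15:8710808-8711057 (minus strand): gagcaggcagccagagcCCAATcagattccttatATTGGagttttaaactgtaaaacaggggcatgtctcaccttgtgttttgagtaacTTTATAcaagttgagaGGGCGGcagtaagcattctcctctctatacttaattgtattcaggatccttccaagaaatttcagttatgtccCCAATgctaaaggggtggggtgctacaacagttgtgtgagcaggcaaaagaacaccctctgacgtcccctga
Slc24a3 chr2:145167525-145167774 (plus strand): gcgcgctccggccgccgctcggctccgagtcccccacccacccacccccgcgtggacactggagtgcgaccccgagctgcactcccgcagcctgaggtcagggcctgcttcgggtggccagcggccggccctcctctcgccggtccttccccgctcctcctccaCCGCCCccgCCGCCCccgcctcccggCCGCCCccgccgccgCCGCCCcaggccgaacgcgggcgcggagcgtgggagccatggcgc
Slc7a8 chr14:54781887-54782136 (minus strand): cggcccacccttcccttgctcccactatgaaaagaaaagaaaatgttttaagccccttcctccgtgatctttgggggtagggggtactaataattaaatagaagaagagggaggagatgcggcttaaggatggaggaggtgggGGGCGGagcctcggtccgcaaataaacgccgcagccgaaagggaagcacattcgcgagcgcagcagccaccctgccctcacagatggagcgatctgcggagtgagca
Slc5a6 chr5:31048563-31048812 (minus strand): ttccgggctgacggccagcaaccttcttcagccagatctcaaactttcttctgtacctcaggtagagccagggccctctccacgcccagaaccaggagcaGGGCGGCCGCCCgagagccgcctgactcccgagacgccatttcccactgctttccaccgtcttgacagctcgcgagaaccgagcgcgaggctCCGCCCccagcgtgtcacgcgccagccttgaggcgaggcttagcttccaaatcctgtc

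GGGCGG was found in all 4 windows, with 1 match each before Slc1a3 and Slc7a8, 3 before Slc5a6 and 4 before Slc24a3. It occurs in 32.7% of all 32851 windows of this length. TATAAA (12.4% of all windows) was found once, and CCAAT (33.8%) 3 times, each of these before Slc1a3 alone. TGATGNAA (3.45% of all windows) was found in 0 of the 4. The windows also differ in base composition: G and C make up 44.8% before Slc1a3, 55.6% before Slc7a8, 63.6% before Slc5a6 and 80.8% before Slc24a3, against a median of 52.4%. A match is a description of these letters and not a site of binding.

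Carriers of amino acids and related amines held 3 of the 5 genes past the test. Among the 29 measured genes 1 rose and 2 fell, 15 were above 0 and 14 below, with a median of 0.03. Slc6a7 encodes a high-affinity, sodium- and chloride-dependent proline transporter best known from nerve terminals. In CD9high replicates 1 to 4 it stood at 7.18, 6.58, 7.02 and 6.57, and in CD9low replicates 1 to 4 at 5.06, 4.97, 4.75 and 4.78. Every CD9high array lay at least 1.51 above every CD9low array, and the probe was detected on all 4 CD9high arrays and on 2 of the CD9low arrays. Slc6a7 rose by 1.95 (SE 0.23, adjusted p = 0.00194), or 3.87-fold against a CD9low level at which 2 of 4 arrays were not above background. The call held in all 19 alternatives in which the gene was tested, with adjusted p from 0.00113 to 0.0293. The difference was 2.0 on slide 1 and 1.79 on slide 2, which held replicate 4 of both fractions.

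Slc1a3 encodes GLAST (EAAT1), which takes up glutamate and aspartate with sodium and is best known from astrocytes. Its values were 5.63, 4.41, 6.45 and 6.13 in CD9high and 7.86, 8.42, 8.33 and 8.07 in CD9low. CD9high replicate 2 was the lowest array and the only one not above background, and the CD9low arrays were close together. Slc1a3 fell by 2.51 on the log2 scale (SE 0.4, adjusted p = 0.0124), or 5.71-fold, the largest difference of the 157 members in these data. The call was lost in 4 of 19 alternatives: without CD9high replicate 1 (adjusted p = 0.0587), on slide 1 alone (0.0717), without the filter on dim probes (0.0575) and under a replicate block (0.0561). Because Slc1a3 is known from glia, glia markers were read beside it. Sox10, Foxd3 and Gfap did not pass the detection filter, and S100b, detected on 2 arrays of each fraction, differed by -0.01 (SE 0.24).

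The 3 other measured Slc1 genes did not pass. Slc1a4 (ASCT1) and Slc1a5 (ASCT2) exchange small neutral amino acids, the latter glutamine above all. Slc1a4 stood between 7.32 and 8.82 in CD9high and at 7.77, 4.33, 7.91 and 7.65 in CD9low, with a difference of 1.04 (SE 0.72, adjusted p = 0.664). The low CD9low value is that of replicate 2, without which the difference was 0.18 (adjusted p = 0.953). Slc1a5 had the same array low, at 4.3 against 5.82 to 6.09 in the other CD9low arrays, and differed by 0.61 with all arrays and 0.21 without it. Slc1a6 differed by -0.14 (SE 0.3).

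Slc7a8 encodes LAT2, a light chain that pairs with the heavy chain Slc3a2 to exchange neutral amino acids. It stood at 4.77, 4.69, 4.96 and 4.98 in CD9high and at 6.35, 6.96, 5.64 and 6.01 in CD9low. The CD9high arrays were dim, with 3 of 4 above background, and the CD9low arrays were spread more widely. The gene fell by 1.39 (SE 0.29, adjusted p = 0.0414), or 2.62-fold. A second probe of the gene went the same way, by -0.96 (SE 0.29). The call was lost in 12 of 19 alternatives, among them the larger offset (adjusted p = 0.0908), the slide as a block (0.0657) and the mean over probes (0.0521). Slc3a2, the heavy chain, differed by -0.33 (SE 0.27, adjusted p = 0.71). The other light chains measured were Slc7a6 (-0.28, SE 0.31) and Slc7a7 (0.53, SE 0.31), which exchange cationic for neutral amino acids, and the cationic carriers Slc7a1 (0.03, SE 0.26) and Slc7a2 (0.24, SE 0.37) did not pass either. Slc7a11, the cystine/glutamate exchanger, was detected on 2 of 8 arrays and was not tested.

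Slc6a6, Slc43a1, Slc43a2 and Slc38a7 had an unadjusted p under 0.05 without passing the test. Slc6a6, the taurine transporter, stood at 10.37, 10.67, 10.37 and 10.04 in CD9high and 9.27, 9.72, 9.32 and 9.37 in CD9low. The fractions did not overlap, with a difference of 0.94 (SE 0.22, adjusted p = 0.0774), and the adjusted p was 0.035 without CD9low replicate 2, 0.0357 with the larger offset and 0.0314 with a trended prior. A second, dim probe of Slc6a6 differed by -0.12 (SE 0.6). Slc43a1 (LAT3), a facilitated carrier of branched-chain and other large neutral amino acids, stood at 7.35, 7.2, 7.88 and 7.6 in CD9high and 8.59, 9.37, 8.3 and 8.39 in CD9low. Its difference was -1.16 (SE 0.28, adjusted p = 0.0872) with no overlap, while a second probe differed by -0.19 (SE 0.54). Slc43a2 (LAT4), its closest relative in function, differed by -1.29 (SE 0.48, adjusted p = 0.343), with CD9high replicate 2 at 7.53 and the other CD9high arrays between 4.85 and 5.88. Without that array Slc43a2 passed the test. Slc38a7, a lysosomal glutamine carrier, differed by -0.79 (SE 0.29, adjusted p = 0.328).

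The Slc38 family, which holds sodium-coupled carriers of glutamine and other small neutral amino acids as well as lysosomal members, showed 0 of 7 genes past the test, with differences from -0.79 to 0.42. Slc38a2, which amino acid shortage is known to induce, stood between 8.93 and 9.17 in CD9high and at 9.04, 9.87, 9.01 and 9.07 in CD9low. The lone high value is again CD9low replicate 2, and the difference of -0.18 (SE 0.25) became 0.03 without it. Slc38a9, a lysosomal arginine sensor for mTORC1, differed by 0.12 (SE 0.37). Its other tested probes differed by -0.48 (SE 0.34), 0.01 (SE 0.26) and -0.43 (SE 0.33). Among the Slc6 genes, those for the carriers of glycine (Slc6a9, 0.32, SE 0.27), creatine (Slc6a8, -0.2, SE 0.22) and GABA and taurine (Slc6a13, 0.46, SE 0.53) did not pass. Slc6a15 differed by 0.59 without passing. Its second probe, detected on 4 CD9high arrays and 1 CD9low array, differed by 1.34 (SE 0.32). Of the 6 measured Slc6 genes, 5 were above 0 and 1 below, where 54.4% of all genes tested were below 0. The family median was 0.53 (0.75 without CD9low replicate 2).

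**Figure D2:**
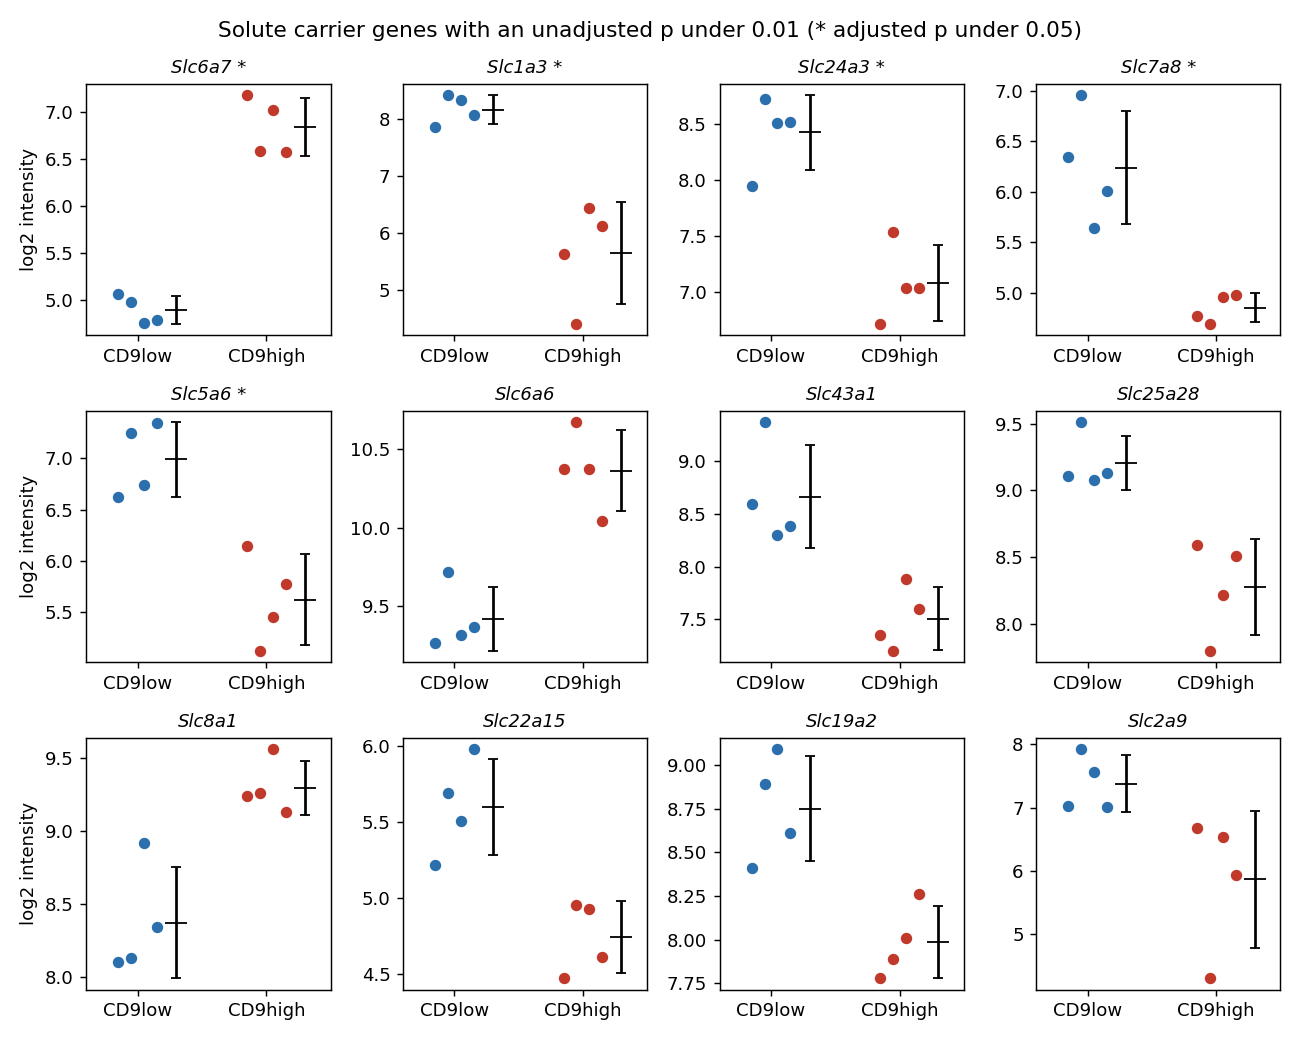
Normalized log2 intensity (vertical axes, which do not start at 0) on each array for the 12 solute carrier genes with an unadjusted p under 0.01, in order of p; points are the 4 CD9low (blue) and 4 CD9high (red) arrays, and bars are the mean ± SD. In all 12 genes the fractions do not overlap, and the 5 with an asterisk passed an adjusted p of 0.05.

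The 9 carriers of vitamins, choline and cofactors had a median of -0.08 (-0.27 without CD9low replicate 2), and 1 of them fell. Slc5a6 encodes the sodium-dependent multivitamin transporter, which takes up biotin, pantothenate and lipoate, cofactors or cofactor precursors of carboxylases and of coenzyme A. It stood at 6.15, 5.12, 5.45 and 5.77 in CD9high and at 6.62, 7.25, 6.74 and 7.35 in CD9low, on all 8 arrays above background. Slc5a6 fell by 1.37 (SE 0.29, adjusted p = 0.0439), or 2.58-fold, and the difference was -1.3 on slide 1 and -1.58 on slide 2. This call was lost in 14 of 20 alternatives, including the omission of any single array (adjusted p from 0.0592 to 0.143), the slide as a block (0.0577) and median centring (0.0584).

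Slc19a2, the thiamine carrier, stood at 7.78, 7.89, 8.01 and 8.26 in CD9high and at 8.41, 8.89, 9.09 and 8.61 in CD9low. Its fractions did not overlap, but the difference of -0.76 (SE 0.23, adjusted p = 0.199) did not pass. The choline carrier-like genes went different ways without passing: Slc44a1 differed by 0.6 (SE 0.3), Slc44a2 by -0.08 (SE 0.21) and Slc44a3 by -0.98 (SE 0.39). For Slc44a1 and Slc44a3 the fractions did not overlap, and CD9low replicate 2 held the extreme value of each (9.65 against 10.76 to 10.91, and 6.96 against 5.15 to 5.43). The other tested probes of Slc44a1 differed by -0.42 (SE 0.31), 0.31 (SE 0.25), -0.12 (SE 0.21) and 0.06 (SE 0.26). Slc46a3, a lysosomal carrier, differed by -0.88 (SE 0.29, adjusted p = 0.248). Slc23a2, an ascorbate carrier on which collagen hydroxylation depends for its cofactor, differed by -0.02 (SE 0.25).

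Carriers of sodium, protons, calcium and magnesium comprised 8 measured genes, of which 1 fell. The class median was 0.01 (-0.19 without CD9low replicate 2). Slc24a3 (NCKX3) and Slc8a1 (NCX1) both extrude calcium in exchange for sodium, the former together with potassium, and they stood on opposite sides. Slc24a3 stood at 6.71, 7.53, 7.03 and 7.03 in CD9high and at 7.95, 8.73, 8.51 and 8.52 in CD9low. It fell by 1.36 (SE 0.26, adjusted p = 0.0308), or 2.56-fold, with a difference of -1.31 on slide 1 and -1.5 on slide 2. The call was lost in 8 of 20 alternatives, among them median centring (adjusted p = 0.082), slide 1 alone (0.22) and the omission of replicate 1 (0.115), 3 (0.108) or 4 (0.0793) of CD9high, or of replicate 3 (0.0962) or 4 (0.106) of CD9low.

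Slc8a1 stood at 9.24, 9.26, 9.56 and 9.13 in CD9high and at 8.1, 8.13, 8.92 and 8.34 in CD9low. All CD9high arrays were above all CD9low arrays, and the difference of 0.92 (SE 0.25, adjusted p = 0.117) did not pass. A second, dim probe of Slc8a1 differed by 0.02 (SE 0.24). The magnesium carrier genes Slc41a1, Slc41a2 and Slc41a3 differed by -0.22 (SE 0.27), 0.18 (SE 0.44) and 0.61 (SE 0.32), and without CD9low replicate 2 Slc41a2 stood at -0.33. The organellar sodium/proton exchanger genes Slc9a8 (-0.32, SE 0.35) and Slc9a9 (-0.16, SE 0.24) did not pass.

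The Slc25 mitochondrial carriers, which pass metabolites and ions through the inner membrane, were the largest class, and 0 of 30 passed the test. Of the 30, 2 were lower and 0 higher at an unadjusted p under 0.05, which 10.7% of all genes tested reached. The class median was -0.1, with 17 below 0 (-0.07, with 19 below 0, without CD9low replicate 2). Slc25a28 (mitoferrin-2), which imports iron for heme and iron-sulfur clusters, stood at 8.59, 7.8, 8.22 and 8.51 in CD9high and at 9.11, 9.51, 9.08 and 9.13 in CD9low. The fractions did not overlap, with a difference of -0.93 (SE 0.24, adjusted p = 0.112). Its relative Slc25a37 (mitoferrin-1), which serves erythroid cells, differed by -0.47 (SE 0.32) and was detected on 1 of 4 CD9high and 3 of 4 CD9low arrays. Slc25a45 also showed no overlap (-0.98, SE 0.36, adjusted p = 0.324), and its difference was -0.62 without CD9low replicate 2.

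The ADP/ATP exchangers Slc25a4 and Slc25a5 differed by 0.46 (SE 0.23, adjusted p = 0.534) and 0.16 (SE 0.27, adjusted p = 0.872). Slc25a3, which brings phosphate to ATP synthase, differed by 0.98 (SE 0.56, adjusted p = 0.592). Its CD9low values were 8.78, 5.77, 8.36 and 8.5, and without the low array, replicate 2, the difference was 0.28; a second probe differed by 0.24 (SE 0.25). Slc25a20, which imports acylcarnitines for fatty acid oxidation, differed by 0.09 (SE 0.27), and Slc25a1, which exports citrate for fatty acid synthesis, by -0.09 (SE 0.24).

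Of the 22 carriers of zinc, iron, copper, manganese and heme, 0 passed the test, with a median of -0.08 (-0.11 without CD9low replicate 2). Slc30a3 (ZnT3), which loads zinc into vesicles, differed by -1.36 (SE 0.48, adjusted p = 0.311), with CD9low arrays from 5.91 to 7.86. Without CD9low replicate 2 the difference was -1.02. Slc11a2 (DMT1), the importer of divalent iron, differed by 0.7 (SE 0.28, adjusted p = 0.4), and Slc40a1 (ferroportin), the iron exporter, by -0.45 (SE 0.37, adjusted p = 0.714). Slc48a1, which moves heme out of lysosomes, differed by -0.87 (SE 0.4, adjusted p = 0.478). Among the 10 measured Slc39 genes, which bring zinc and other metals into the cytosol, differences ran from -0.27 (Slc39a14) to 0.98 (Slc39a6). The value of Slc39a6 again turned on CD9low replicate 2, at 7.59 against 10.66 to 11.01 in the other CD9low arrays, and was 0.18 without it. Slc39a13, Slc39a7 and Slc39a1, detected on all 8 arrays, differed by -0.19 (SE 0.21), 0.09 (SE 0.21) and -0.11 (SE 0.24). The sign depended on the probe. Other tested probes differed by -0.41 (SE 0.32) and -0.32 (SE 0.25) for Slc39a7. For Slc39a13 they differed by -0.1 (SE 0.27), 0.12 (SE 0.23) and 0.06 (SE 0.28).

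Sugar and polyol carriers did not pass the test in any of 14 genes, but 11 of the 14 were below 0, with a median of -0.25, where 54.4% of all genes tested were below 0. With median centring 9 of the 14 were below 0 and the median was -0.22, and without CD9low replicate 2 these were 8 of 14 and -0.1. Slc2a9, of the glucose transporter family and known for carrying urate, stood at 6.68, 4.3, 6.53 and 5.94 in CD9high and at 7.02, 7.92, 7.57 and 7.01 in CD9low. The arrays did not overlap, with a difference of -1.52 (SE 0.48, adjusted p = 0.222), the most negative of the members after Slc1a3, and CD9high replicate 2 was not above background. Slc2a1 (GLUT1), the basal glucose carrier, stood at 7.29, 6.14, 6.97 and 7.66 in CD9high and at 7.32, 8.47, 7.42 and 7.36 in CD9low. Its difference of -0.63 (SE 0.37, adjusted p = 0.604) was -0.36 without CD9low replicate 2, the high array, and had the opposite sign on slide 2 (0.29). Slc2a3 (GLUT3), Slc2a8, Slc2a10 and Slc2a13 differed by -0.26 (SE 0.37), -0.08 (SE 0.29), -0.17 (SE 0.26) and -0.3 (SE 0.25). All 6 measured Slc2 genes were below 0, but 5 of 6 with median centring and 5 of 6 without CD9low replicate 2. With all arrays, 54.4% of all genes tested were below 0. The count also rests on the probe used. Other tested probes differed by 0.08 (SE 0.28) for Slc2a10, and by 0.01 (SE 0.31) and -0.01 (SE 0.27) for Slc2a13. Slc2a4, the insulin-regulated carrier, was not above background on any of the 8 arrays.

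Monocarboxylate and fatty acid carriers gave 0 of 8 genes past the test and a median of 0.02 (-0.02 without CD9low replicate 2). Slc16a7 (MCT2), a carrier of lactate, pyruvate and ketone bodies, stood at 4.86, 4.42, 4.53 and 5.16 in CD9high and at 4.94, 5.79, 5.45 and 5.39 in CD9low, with a difference of -0.65 (SE 0.26, adjusted p = 0.395). The lactate carriers Slc16a1 (MCT1) and Slc16a3 (MCT4) were detected on 0 and 2 of 8 arrays and were not tested. Slc27a1 (FATP1), a fatty acid uptake protein of adipocytes, differed by -0.08 (SE 0.35), Slc27a6 by -0.27 (SE 0.36) and Slc27a3 by 0.72 (SE 0.7). For Slc27a3, CD9low replicate 2 stood at 7.27 against 4.48 to 4.88 in the other CD9low arrays, and the difference without it was 1.36 (adjusted p = 0.408).

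The 15 carriers of peptides, bile acids, urea and organic ions held 0 genes past the test, with a median of -0.17 and 11 below 0. Without CD9low replicate 2 the median was -0.01, with 8 below 0. Slc22a15, of the organic ion transporter family, stood at 4.47, 4.95, 4.93 and 4.61 in CD9high and at 5.22, 5.69, 5.51 and 5.98 in CD9low. The fractions did not overlap and the difference was -0.86 (SE 0.24, adjusted p = 0.142), with 2 of 4 CD9high arrays above background. Slc10a6, which carries sulfated steroids, differed by -1.34 (SE 0.47, adjusted p = 0.298). Slc22a5, the carnitine carrier, differed by -0.29 (SE 0.36).

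Carriers of bicarbonate, chloride, sulfate and phosphate gave 0 of 14 genes past the test and a median of -0.01 (0.08 without CD9low replicate 2). Slc4a8, a sodium-driven bicarbonate exchanger, was detected on every CD9high array and on no CD9low array, the only member with no detected array in a fraction. It passed the detection filter through CD9high alone, and the difference did not pass the test (adjusted p = 0.31). On these arrays the CD9high mean was at least 1.19-fold that of CD9low, a bound that holds no sampling error. This bound takes, for each CD9low array, the lowest signal of any detected probe where that exceeds the probe's own. Slc12a2 (NKCC1), the sodium-potassium-chloride cotransporter, differed by 0.03 (SE 0.24), Slc20a1, a phosphate importer, by 0.35 (SE 0.23), and Slc26a2, which supplies sulfate for proteoglycans, by 0.19 (SE 0.29). Nucleoside and nucleotide sugar carriers gave 0 of 8 past the test and differences from -0.45 to 0.24. Among them Slc29a1 (ENT1), the main equilibrative nucleoside carrier, differed by 0.01 (SE 0.27).

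Of the 316 solute carrier genes, 159 were not tested, 104 of them detected on no array and 9 on 3 arrays. Of the 9 just outside the rule, Slc6a2, the noradrenaline transporter, was detected on 3 CD9high arrays and no CD9low array, with means of 5.36 and 4.47. The 12 members just inside the rule were detected on exactly 4 arrays. Detection did not lean to a fraction: 26 members were detected on more CD9high arrays, 29 on more CD9low arrays and 102 on as many of each.

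The array that stood apart set the values of several members. In 96 of 157 members, CD9low replicate 2 was the CD9low array farthest from the median of its fraction, against 19 to 22 for the other CD9low arrays; in CD9high, replicate 2 was the farthest in 66. Leaving out CD9low replicate 2 moved 8 members by over 0.5 (Slc1a4, Slc25a3, Slc39a6, Slc25a16 and Slc41a2 downward, Slc27a3, Slc6a13 and Slc25a26 upward) and changed the sign of 27, none of them over 0.31 in size with all arrays. None of the 5 genes past the test moved by that much, and without this array 4 of them still passed, Slc5a6 did not (adjusted p = 0.0592) and Slc6a6 did. The median of the members was then -0.08.

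**Figure D3:**
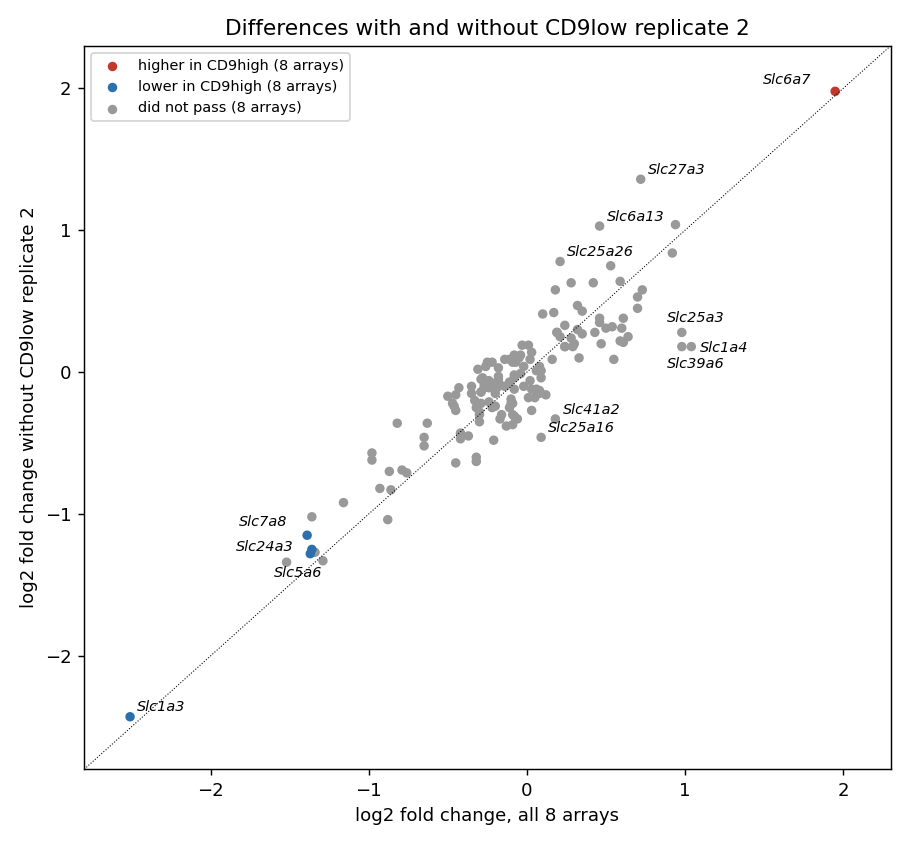
Log2 fold change of CD9high over CD9low for the 157 solute carrier genes with all 8 arrays (horizontal) and without CD9low replicate 2 (vertical); each point is a gene, the dotted line marks equal values, and names are given for genes past the test and for those that moved by over 0.5. Slc1a4, Slc25a3 and Slc39a6 drop from about 1 (1.04, 0.98 and 0.98) to 0.18, 0.28 and 0.18, while the 5 coloured genes stay near the line.

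Genes that power, assist or resemble these carriers were read from lists. Of 6 measured sodium pump subunits and their FXYD regulators, 1 rose and 5 did not pass, where 1.13% of all genes tested rose. Fxyd6, of the family of small proteins that modulate the pump, stood at 10.96, 10.56, 11.16 and 10.93 in CD9high and at 8.25, 8.67, 8.26 and 7.79 in CD9low. It rose by 2.66 (SE 0.25, adjusted p = 0.000844), or 6.33-fold, in all 20 alternatives, more than any of the 157 carriers. Atp1b1, a beta subunit of the pump, had fractions that did not overlap and differed by 1.66 (SE 0.48, adjusted p = 0.164), with CD9low replicate 2 at 4.27 against 6.39 to 6.72 in the other CD9low arrays. Without that array the difference was 1.1 (adjusted p = 0.0381).

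Of 33 measured solute carriers with symbols of another form, 2 rose and 0 fell, where 1.13% of all genes tested rose and 0.559% fell. Slco2a1, which takes up prostaglandins for their clearance, stood at 8.3, 7.73, 8.26 and 8.18 in CD9high and at 5.13, 6.55, 6.43 and 5.13 in CD9low. It rose by 2.31 (SE 0.36, adjusted p = 0.0124) and was lost in 5 of 20 alternatives, among them slide 1 alone (adjusted p = 0.104), without CD9high replicate 1 (0.0608) or without CD9high replicate 3 (0.0503). Nipal2, a gene of the NIPA-like family, was not above background on any CD9low array, and it rose in CD9high (adjusted p = 0.00849). By the bound used for Slc4a8, its CD9high mean on these arrays was at least 2.43-fold that of CD9low. Like Slc4a8 it passed the detection filter through CD9high alone. This call was lost in 2 of 19 alternatives, slide 1 alone (adjusted p = 0.101) and a replicate block (0.0567). Against 1.69% of all genes tested, 0 of 20 measured chaperones, scaffolds and regulators of carriers passed the test. Among these Nedd4l, a ubiquitin ligase that retrieves transporters from the membrane, differed by -0.78 (SE 0.24, adjusted p = 0.214), and Txnip, which restrains glucose uptake, by -0.74 (SE 0.27, adjusted p = 0.329).

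Probes of a gene and slides were compared last. Of the 47 members with several tested probes, 29 had all of them on the same side of 0. The 5 genes past the test had the same sign on slide 1 (3 arrays per fraction) and on slide 2 (1 per fraction, which allows no test), as did 92 of the 157 members (58.6%) and 53.4% of all genes; the choice of the 5 genes on all arrays fixes much of this. On slide 1 alone only Slc6a7 passed among the members, where 0.448% of all genes tested did.

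**Figure D4:**
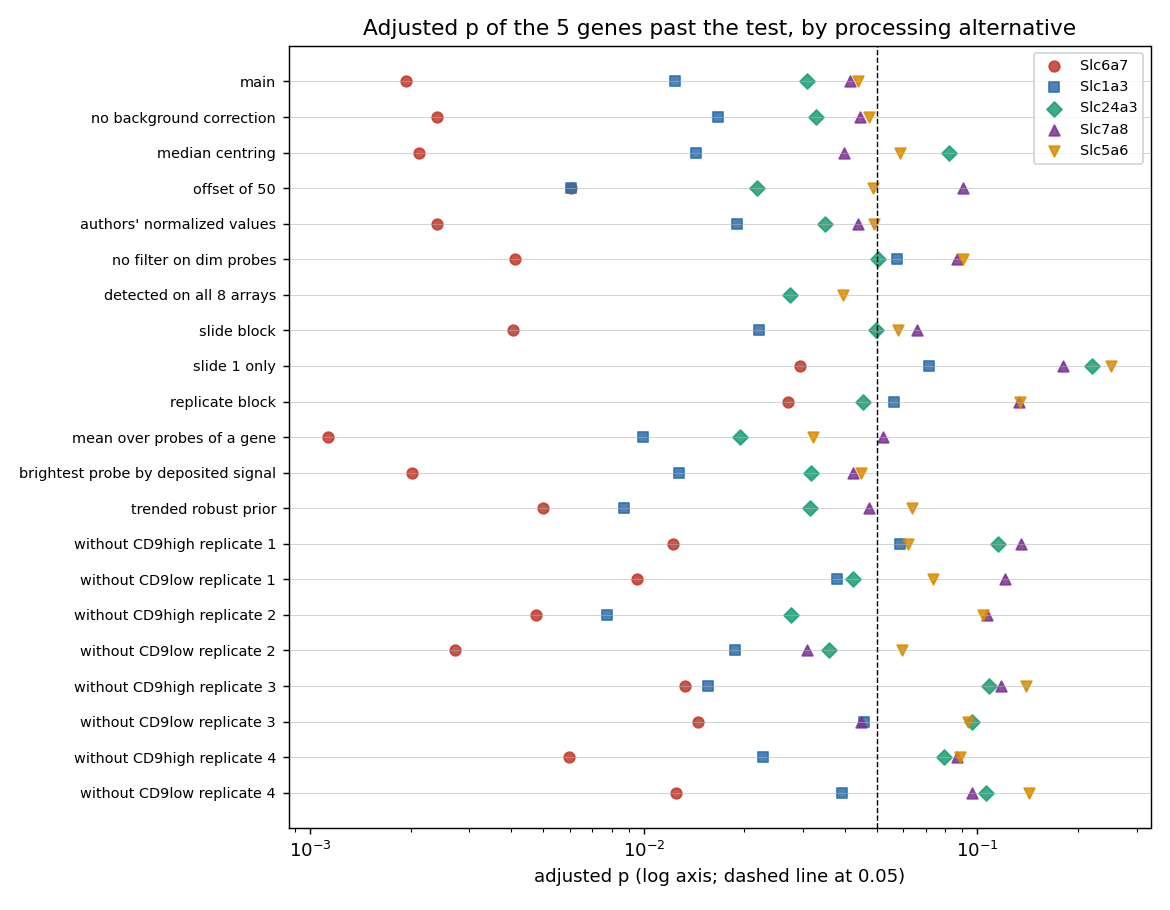
Adjusted p (horizontal, log axis) of the 5 solute carrier genes past the test in the reported analysis, labelled main, and under each of 20 alternatives (rows); the dashed line marks 0.05, and a gene without a point was not tested in that row. Slc6a7 stays left of the line in every row where it was tested (0.00113 to 0.0293), Slc1a3 in 15 of 19, Slc24a3 in 12 of 20, Slc7a8 in 7 of 19 and Slc5a6 in 6 of 20.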

How the data were processed

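Illumina mouse bead arrays measured expression in 4 CD9high and 4 CD9low samples, grouped by their titles; the source field of the CD9low samples instead speaks of high CD9, and the design text prints the CD9high gate for both. Per the labels' protocols, RNA was amplified (Ovation Pico WTA System V2) before labelling, which can alter ratios. The submitters' processing notes name GenomeStudio. The authors deposited signal intensity and a detection p-value per probe and array, which by the values (some below 0, unequal medians) are background-subtracted and not normalized between arrays; a second deposited table of intensity, read from its values as quantile normalized on a linear scale, was an alternative. The number of arrays, 4 per fraction, limits the precision.

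Gene names came from the platform annotation: 34885 of 45281 probes had 1 symbol, 18 several and 10378 none. Coordinates are those of RefSeq windows only. Normalization used neqc of limma 3.58.1 under R 4.3.3 (normexp, control levels inferred by neqc through detection p-values, offset 16, quantile, log2), which acts on already subtracted values and compresses dim differences. The fractions were compared through lmFit and eBayes, with no block, after a check of the fit on simulated data. Alternatives were 12 settings and the omission of each array. Lists and members were chosen with earlier results of these data known. Genes named are the members past the test or with an unadjusted p under 0.01, those of smallest p and the 2 brightest per class, those of 7 families (Slc1, Slc2, Slc7, Slc16, Slc27, Slc38, Slc39), and list genes past the test or of smallest p; other members named were chosen after their values were seen.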

Additional observations from a re-analysis of the deposited data

Results flagged for a closer look

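Within a fraction of 4 arrays, a value was singled out where its gap to the nearest other array took up more of the fraction's range than Dixon's critical value for 4 samples allows. Of 142 fraction groups tested for the 71 genes named by the rule, 15 held such an array, where chance gives about 1 in 20. CD9low replicate 2 was that array in 11 of the 15. It was low for Slc1a4 (4.33, others 7.65 to 7.91), Slc1a5 (4.3, others 5.82 to 6.09), Slc39a6 (7.59, others 10.66 to 11.01), Slc44a1 (9.65, others 10.76 to 10.91), Slc16a9 (8.39, others 9.1 to 9.15) and the sodium pump gene Atp1b1 (4.27, others 6.39 to 6.72). It was high for Slc2a1 (8.47, others 7.32 to 7.42), Slc38a2 (9.87, others 9.01 to 9.07), Slc7a7 (7.74, others 6.8 to 6.92), Slc25a28 (9.51, others 9.08 to 9.13) and Slc27a3 (7.27, others 4.48 to 4.88). The remaining values were those of Slc16a13 in CD9high replicate 2 (4.21, others 4.87 to 5.01), Slc2a10 in CD9high replicate 4 (6.97, others 7.41 to 7.48), Slc39a1 in CD9low replicate 3 (7.9, others 8.23 to 8.29) and Slc7a2 in CD9low replicate 4 (4.37, others 5.42 to 5.54). None of these genes passed the test.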

How the results depend on the processing

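The 5 solute carriers past the test stayed 4 or 5 with no background correction, an offset of 50, the authors' normalized values, the mean over probes, the brightest probe by deposited signal and a trended prior. They were 3 with median centring, 3 with the slide as a block, 2 among genes detected on all 8 arrays (89 members), 1 without the filter on dim probes (316 genes tested) and 1 on slide 1 alone. Leaving out 1 array gave 1 to 5; it was 1 without CD9high replicate 1, 2 without CD9high replicate 3, CD9high replicate 4 or CD9low replicate 4, and 3 without CD9low replicate 1 or 3. The count of all genes past the test was 181, 48 on slide 1 alone and 54 to 230 with 1 array left out (54, 72 and 116 without CD9high replicate 1, 3 or 4, and 75, 81 and 76 without CD9low replicate 1, 3 or 4). With the replicate number as a block, 2 solute carriers (Slc6a7 and Slc24a3) and 76 of all genes passed, and Slc1a3 (adjusted p = 0.0561), Slc7a8 (0.133), Slc5a6 (0.134), Slco2a1 (0.0627) and Nipal2 (0.0567) did not. The deviations of same-numbered arrays correlated at 0.22, -0.1, 0.18 and 0.16, and 5 of 8 arrays correlated best with their own number. Replicate 2, at -0.1, holds the CD9low array that stood apart, and same-numbered arrays lay on the same slide. Since 1 pair did not correlate above 0 and no label says what a number shares, the numbers were not taken as pairs. These values cannot settle whether the numbers mark pairs. Of 1390 values of named genes under alternatives, 45 lost their call, 4 gained one and 0 called values changed sign. The counts on slide 1 and with an array left out rest on fewer samples, and those without the filter on more genes tested. Without CD9low replicate 2, also with fewer samples, the count of all genes was 230, above the 181 with all arrays. The cause of these changes was not tested for any alternative. Dim probes near background, such as those of Slc7a8 and Slc22a15 in CD9high, limit what these arrays can show.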
